A study of Mus musculus with 12 samples.

Results

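The genes described here are 37 genes of the cell cycle and of DNA replication, named by symbol as a functional module. All 37 were found in the deposited tables, each under 1 gene identifier, among 56065 genes. They were followed in liver RNA from 12 libraries, 4 in each of 3 groups of AhR-floxed (AhRfl/fl) mice that the labels call male. In these mice both copies of the aryl hydrocarbon receptor gene are flanked by recombination sites, and the labels name no Cre in any group. The group CD was fed a low-fat diet (10 kcal% from fat, sucrose matched), and its treatment label reads NA, so whether these mice were injected is not given in the sources used here, and diet and injection cannot be told apart in MD against CD. The group MD was fed a diet that took 40 kcal% from fat and 20 kcal% from fructose and held 2% cholesterol, and was injected into the peritoneum 3 times a week with vehicle, 0.2% DMSO in saline. The group MD+CA ate the same diet and received cinnabarinic acid, a tryptophan metabolite, at 12 mg/kg on the same schedule. Diets began at 8 weeks of age and ran for 20 weeks. The labels do not say outright that each library is a separate mouse, so the tests measure the spread between these libraries.

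Cells enter a round of division when D-type cyclins with CDK4 or CDK6, and then E-type cyclins with CDK2, inactivate the retinoblastoma proteins and free the E2F factors. E2F then drives the genes for origin licensing, replication forks and nucleotide supply, and a later wave of genes for mitosis follows under FOXM1 and B-MYB. CDK inhibitors such as p21 (Cdkn1a), p27 (Cdkn1b) and p18 (Cdkn2c) hold the kinases back. Most hepatocytes of an adult liver rest outside the cycle and return to it after injury or loss of tissue, while resident macrophages and other non-parenchymal cells renew at their own rates.

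Assigned reads ranged from 9089586 to 14492587 per library. The hepatocyte marker Alb stood between 16600 and 45500 CPM (reads scaled to library size with TMM factors), the level of an abundant liver transcript. Xist held between 5122 and 12865 reads in every library while Ddx3y, Kdm5d, Uty and Eif2s3y held 0 in all 12, which goes against the label male. Mitochondrial transcripts took 10.7, 17.5, 6.16 and 9.37% of the reads in MD against 4.98 to 7.93% in the other groups. MD replicates 1 and 2 and MD+CA replicate 1 had the shortest fragments, with allowances of 230, 221 and 227 bases against 246 to 280 in the rest. Results that move when these libraries are left out are given with both values.

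Some promoter letters were in a larger share of the members' promoters than of all promoters, and the choice of members did not use them. Windows from 250 bases before to 50 bases after the start were taken from RefSeq on GRCm38.p6, a build other than that of the expression tables, and 30 of the 37 members matched 34 windows. Both strands were searched. CCAAT, the box bound by NF-Y, was in 64.7% of the member windows against 37.4% of all 32851 windows. TTTGAA or TTTAAA, the core letters of the cell cycle genes homology region (CHR), was in 41.2% against 27.6%. TTTGGCGC or TTTCGCGC, letters of an E2F site, was in 17.6% against 0.813%, namely in windows of Cdk1, Cdt1, Mcm3, Mcm5, Mcm6 and Mcm7. CATG followed by 6 bases of any kind and CATG, a core of the p53 site, was searched after the Cdkn1a window had been read. It was in 1 member window, that of the upstream start of Cdkn1a, and in 0.712% of all windows. The window of the other Cdkn1a start had no match, and which start gave the Cdkn1a reads was not tested. E2F matches on the 2 strands can share bases, as in Mcm6, and no match says only that the letters are not in the window. The 4 windows below show a replication gene, a kinase with all 3 cell cycle elements, a mitotic kinase that fell below the low-count filter, and the upstream start of the member with the largest difference between groups. Each runs 5′ to 3′ on the gene's strand over the 150 bases before the start, with the matched letters in capitals. A match is a description of the letters and not evidence of binding.
Mcm6, chr1:128359706-128359855, minus strand, E2F letters and CCAAT in capitals: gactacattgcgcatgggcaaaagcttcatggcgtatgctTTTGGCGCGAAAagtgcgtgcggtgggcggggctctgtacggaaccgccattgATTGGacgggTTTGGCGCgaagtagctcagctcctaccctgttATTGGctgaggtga
Cdk1, chr10:69352913-69353062, minus strand, E2F letters, CCAAT and CHR letters in capitals: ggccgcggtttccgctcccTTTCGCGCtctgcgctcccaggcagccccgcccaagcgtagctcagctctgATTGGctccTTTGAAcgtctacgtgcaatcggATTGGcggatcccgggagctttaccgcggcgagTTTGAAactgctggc
Plk1, chr7:122159285-122159434, plus strand, CHR letters and CCAAT in capitals: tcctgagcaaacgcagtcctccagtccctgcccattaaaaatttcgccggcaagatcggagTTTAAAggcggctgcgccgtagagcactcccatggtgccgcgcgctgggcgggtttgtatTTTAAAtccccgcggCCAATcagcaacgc
Cdkn1a upstream start, chr17:29090829-29090978, plus strand, p53 core in capitals: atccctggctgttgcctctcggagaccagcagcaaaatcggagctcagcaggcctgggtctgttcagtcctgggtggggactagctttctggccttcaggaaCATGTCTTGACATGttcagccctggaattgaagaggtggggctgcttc

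Set in order by TPM, which divides reads by transcript length and so allows genes to be compared, the members spanned more than 2 orders of magnitude. Pcna, the sliding clamp of the replication fork, had the highest median over the 12 libraries at 26.1 TPM (range 10.4 to 40.1). Ccnd1 followed at 22.8 (9.10 to 40.4), Rrm1 at 17.4, Cdkn1b at 15.5, Ccnd3 at 15.4 and Cdk4 at 12.8 TPM. At the other end stood the licensing factor Cdc6 at 0.0628 TPM, the checkpoint kinase Bub1 at 0.102 and the mitotic kinase Aurkb at 0.148. The ranges of neighbours in this order overlapped throughout, so neighbouring ranks do not differ beyond the spread. Mki67, the antigen used to count cycling cells, had a median of only 0.448 TPM.

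**Figure D1:**
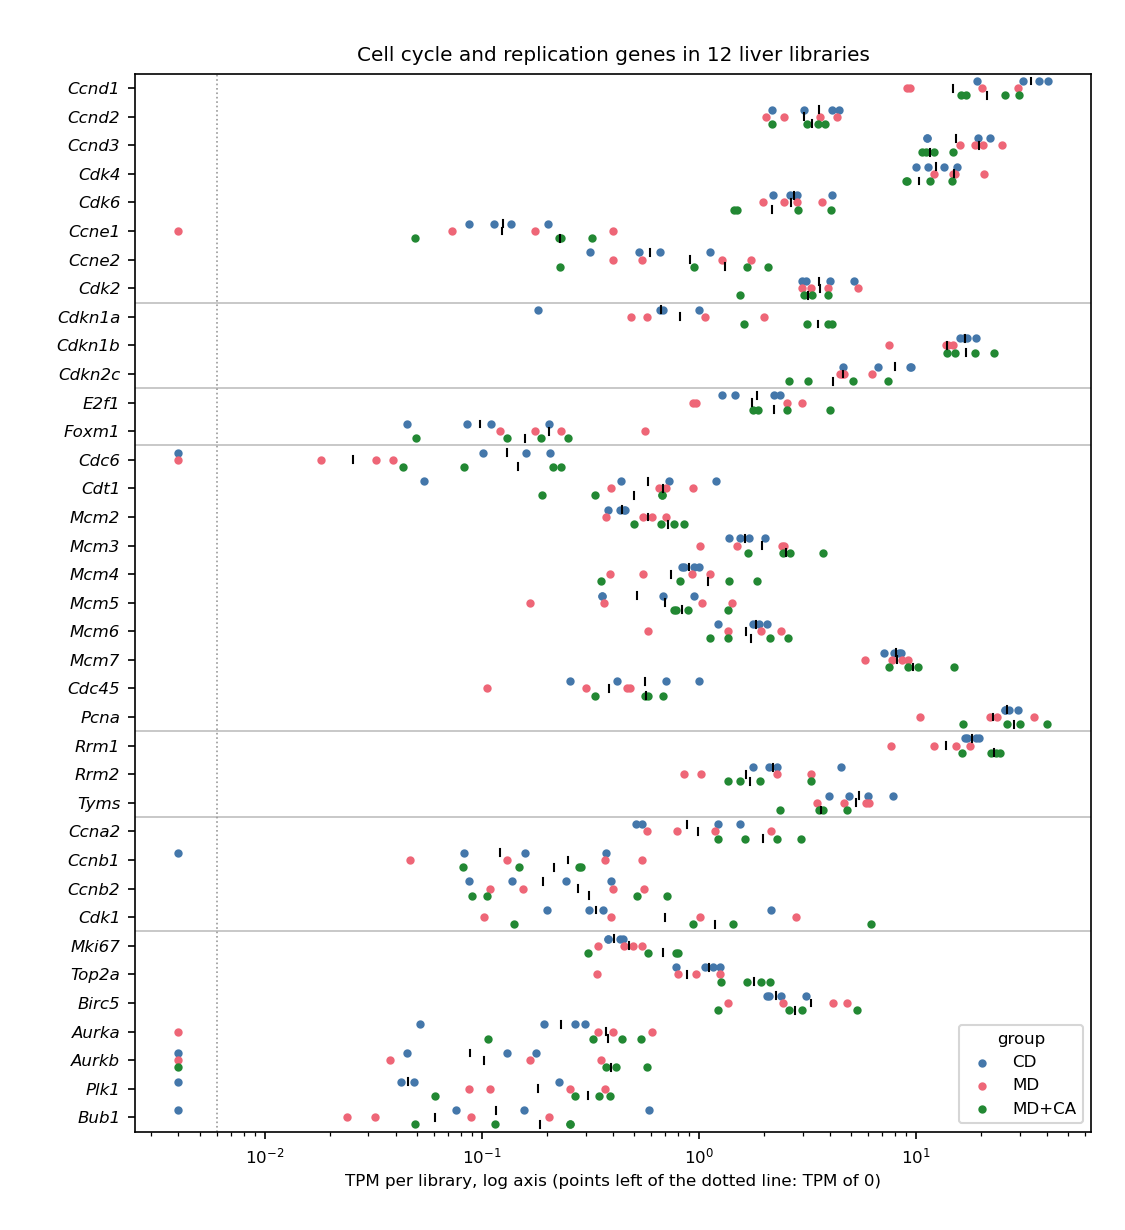
TPM of the 37 members on a log axis, 1 row per gene ordered by role with lines between roles, 1 point per library coloured by group and a black tick at each group's median. Pcna, Ccnd1, Rrm1, Cdkn1b, Ccnd3 and Cdk4 lie above the others, libraries at 0 are drawn left of the dotted line, and for most members the 3 groups overlap.

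Of the 37 members, 27 passed the low-count filter and were tested, and 10 were not. With edgeR's quasi-likelihood test and Benjamini-Hochberg adjustment over all 13631 genes, 0 of the 27 passed 0.05 in any of the 3 comparisons. Over all genes the test called 0.088% in MD against CD, 2.71% in MD+CA against MD and 0.528% in MD+CA against CD. An unadjusted p under 0.05 was reached by 4 members in MD against CD, against 19.9% of all genes, by 6 in MD+CA against MD, against 23.2%, and by 5 in MD+CA against CD, against 10.5%. As shares of the 27 these were 14.8, 22.2 and 18.5%. DESeq2 passed 0 members in MD against CD (4 unadjusted), Cdk6 alone in MD+CA against MD (5 unadjusted) and Cdkn1a alone in MD+CA against CD (4 unadjusted). Limma voom passed 0, 0 and 1 in the same order (6, 6 and 5 unadjusted), the 1 being Cdkn1a. The shared libraries tie these comparisons to each other: MD enters the first and the second, MD+CA the second and the third, and CD the first and the third.

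The median log2 fold change of the 27 tested members was 0.20 in MD against CD, beside 0.04 over all genes. It was 0.10 in MD+CA against MD, beside −0.003, and 0.14 in MD+CA against CD, beside 0.02. The 95% interval of the log2 fold change lay within 2-fold in either direction for 14, 13 and 12 of the 27 members, against 54.7, 52.4 and 64.2% of all genes. Pcna, Mcm7, Mcm6, Tyms, Cdk4, Ccnd2 and Cdkn1b were bounded in this way in all 3 comparisons. For Pcna the log2 fold change was −0.10 (95% interval −0.64 to 0.45) in MD against CD and 0.01 (−0.54 to 0.56) in MD+CA against CD. The interval was wide for Cdk1, −1.14 to 1.83 in MD against CD, so that a difference of 2-fold in either direction was not bounded. For Cdt1 in the same comparison it ran from −0.31 to 2.02 and for Cdc45 from −1.62 to 0.56, each bounded within 2-fold on 1 side only.

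**Figure D2:**
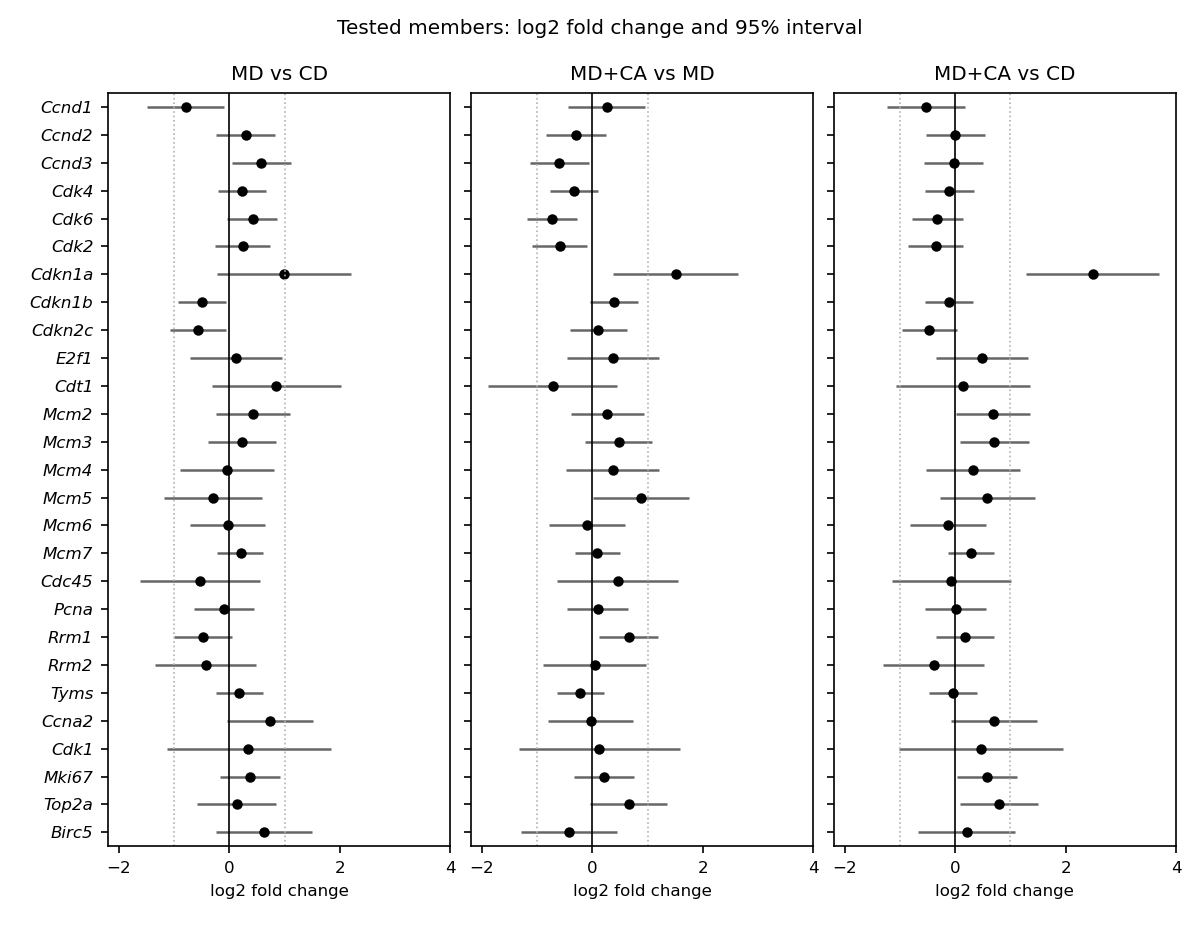
Log2 fold change (point) and 95% interval (line) of the 27 tested members in the 3 comparisons, with dotted lines at 2-fold in each direction. Cdkn1a in MD+CA against CD, at 2.49 (1.29 to 3.70), is the interval that lies wholly beyond the dotted line.

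The D-type cyclins, which sense growth signals at the entry to the cycle, did not share a direction. Ccnd1 stood at 91.3, 128, 64.2 and 128 CPM in CD, at 34.8, 36.2, 95.8 and 71.3 in MD and at 50.4, 80.8, 64.2 and 89.0 in MD+CA. MD replicates 1 and 2 were the lowest of all 12 libraries, while MD replicates 3 and 4 lay within the range of CD. The log2 fold change in MD against CD was −0.79 (SE 0.33, adjusted p = 0.208), or 1.73-fold lower, and −0.30 (adjusted p = 0.76) without the 3 libraries of short fragments. Between MD+CA and CD it was −0.53 (SE 0.33, adjusted p = 0.674).

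Ccnd3, the D-type cyclin best known from lymphoid cells, stood at 20.1, 10.6, 18.2 and 24.4 CPM in CD, at 28.7, 29.2, 20.8 and 30.6 in MD and at 22.2, 13.6, 21.8 and 14.8 in MD+CA. Here 3 of 4 MD libraries were above all 8 others, and MD replicate 3 was not. Its log2 fold change was 0.57 (SE 0.25, adjusted p = 0.223) in MD against CD and −0.60 (SE 0.25, adjusted p = 0.172) in MD+CA against MD. Ccnd2, the remaining D-type cyclin, ranged from 9.66 to 23.8 CPM over the 12 libraries with its groups overlapping, and its log2 fold change in MD+CA against CD was 0.00 (95% interval −0.53 to 0.54).

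The kinases of S phase entry were lowest in MD+CA in the mean. Cdk6, a partner of the D-type cyclins, stood at 18.6, 15.5, 17.4 and 18.0 CPM in CD, at 22.0, 27.6, 15.5 and 27.8 in MD and at 11.2, 12.5, 13.7 and 18.4 in MD+CA. MD and MD+CA overlapped through MD replicate 3 and MD+CA replicate 4. The log2 fold change in MD+CA against MD was −0.73 (SE 0.22, adjusted p = 0.0729), or 1.66-fold lower, the smallest p of any member in that comparison. DESeq2 gave an adjusted p of 0.0352, and edgeR without MD replicate 3 gave −0.88 with 0.0296. An offset for average transcript length gave −0.35 with 0.532, and leaving out the 3 libraries of short fragments gave −0.54 with 0.347. Over all alternatives the adjusted p of Cdk6 ranged from 0.0296 to 0.532.

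Cdk2, the partner of the E-type and A-type cyclins, stood at 10.6, 12.7, 6.99 and 7.64 CPM in MD and at 6.71, 6.88, 4.56 and 6.92 in MD+CA. These groups did not overlap, which held for 2 of the 27 members in that comparison (Cdk2 lower, Mcm5 higher) and for 10.2% of all genes. The log2 fold change was −0.59 (SE 0.24, adjusted p = 0.154), and −0.25 (adjusted p = 0.674) without the 3 libraries of short fragments. Retained-intron transcripts held 28.5 to 68.8% of the Cdk2 reads in MD and 21.9 to 70.8% in MD+CA. The summed Cdk2 count is thus not a measure of coding transcript alone. Cdk4 ranged from 12.4 to 24.0 CPM, its groups overlapped in every comparison, and its log2 fold changes lay between −0.33 and 0.23.

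Cdkn1a, which encodes p21, the CDK inhibitor induced by p53 and by several other stress and differentiation signals, showed the largest difference of any member. Its reads numbered 12, 1, 10 and 19 in CD, 14, 7, 21 and 39 in MD and 54, 49, 57 and 26 in MD+CA. Scaled, it stood at 0.811, 0.101, 0.894 and 1.32 CPM in CD, at 0.981, 0.713, 1.58 and 3.10 in MD and at 4.96, 4.01, 7.22 and 2.25 in MD+CA. All 4 MD+CA libraries were above all 4 CD libraries, and MD lay between with overlap on both sides.

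The mean of Cdkn1a was 0.782 ± 0.506 CPM in CD (SD, n = 4), 1.59 ± 1.07 in MD and 4.61 ± 2.07 in MD+CA. Its log2 fold change in MD+CA against CD was 2.49 (SE 0.57, adjusted p = 0.0586), a 5.63-fold higher level with a 95% interval from 2.44-fold to 13.0-fold. This just missed the threshold in edgeR, while DESeq2 (adjusted p = 0.00181) and limma voom (0.0478) called it, as did edgeR restricted to protein-coding genes (0.0412). Over all alternatives the adjusted p ranged from 0.00166 to 0.184. Against MD, it was 1.51 (SE 0.53, adjusted p = 0.116), or 0.92 without the 3 libraries of short fragments, and MD against CD gave 0.99 (SE 0.57, adjusted p = 0.342). Against CD the value without those libraries was 2.44 (adjusted p = 0.0861). One protein-coding transcript held 97.6% of its reads.

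The other inhibitors of the module had their lowest means in MD. Cdkn1b, p27, stood at 38.5, 42.3, 45.1 and 35.5 CPM in CD, at 32.7, 18.1, 34.2 and 28.7 in MD and at 33.3, 39.3, 33.2 and 43.7 in MD+CA. MD lay below CD without overlap, the only member to do so against 7.12% of all genes, and the log2 fold change was −0.50 (SE 0.20, adjusted p = 0.196). Cdkn2c, the p18 inhibitor of CDK4 and CDK6, stood at 5.67, 4.26, 5.28 and 5.91 CPM in CD and at 3.15, 3.56, 3.23 and 4.30 in MD. MD replicate 4 just reached the lowest CD library, and the log2 fold change was −0.57 (SE 0.24, adjusted p = 0.206). In MD+CA Cdkn2c had a mean of 3.82 ± 0.863 CPM, near that of MD.

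**Figure D3:**
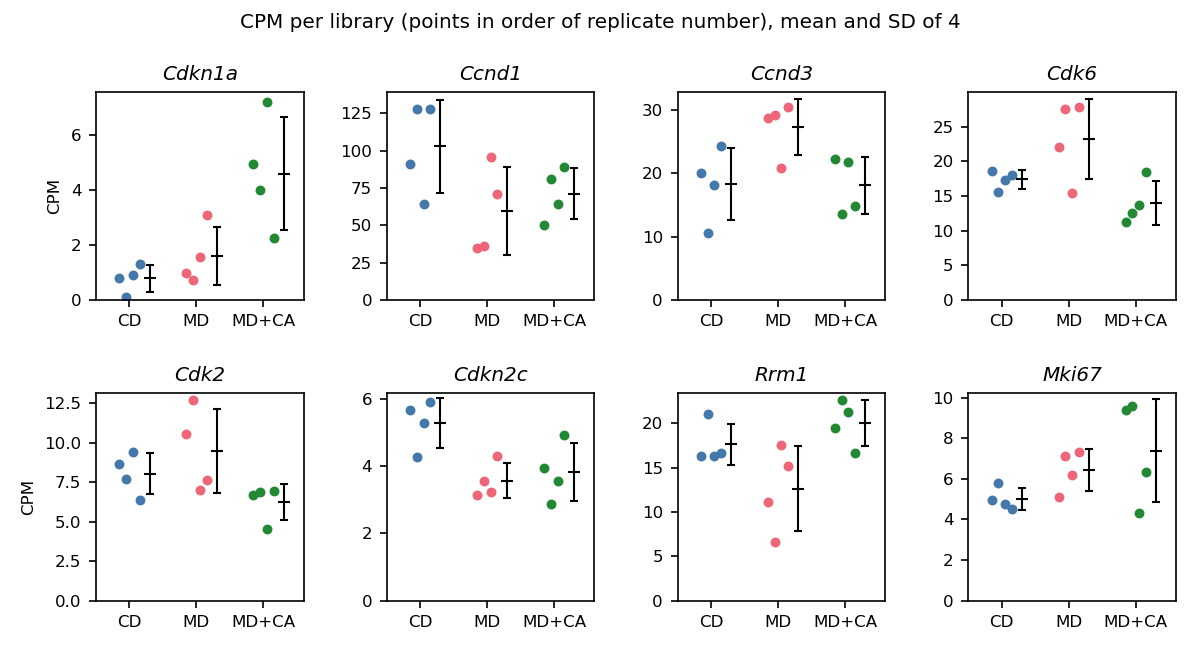
CPM of 8 members in the 12 libraries, 1 point per library in replicate order, with the mean and SD of 4 beside each group. Cdkn1a is highest in the 4 MD+CA libraries except for MD replicate 4, which exceeds MD+CA replicate 4, while Ccnd1 is low in MD replicates 1 and 2.

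E2f1, the activating E2F factor, ranged from 2.44 to 9.33 CPM, with the lowest values in MD replicates 1 and 2 and the highest in MD+CA replicate 2. Its groups overlapped in every comparison, and its log2 fold changes were 0.11, 0.37 and 0.48 in MD against CD, MD+CA against MD and MD+CA against CD. Among its classic targets, the subunits of the MCM2-7 helicase that is loaded at origins gave mixed values. Mcm7 had the highest level per length (median 8.42 TPM) and Mcm2 the lowest (0.529 TPM).

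Mcm5 stood at 1.28, 1.01, 0.984 and 1.46 CPM in CD, at 0.561, 0.407, 1.43 and 1.43 in MD and at 1.65, 1.64, 1.90 and 1.99 in MD+CA. Mcm2 stood at 1.08, 1.52, 1.52 and 1.32 CPM in CD and at 2.57, 1.56, 2.41 and 2.25 in MD+CA. For both genes all 4 MD+CA libraries were above all 4 CD libraries, and for Mcm5 also above all 4 MD libraries. Members with no overlap between MD+CA and CD numbered 4 of 27 (Mcm2, Mcm5, Cdkn1a and Ccna2, all higher in MD+CA), against 6.4% of all genes in either direction and 3.48% higher.

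None of these differences passed after adjustment. Between MD+CA and CD the log2 fold change was 0.69 for Mcm2 (SE 0.32, adjusted p = 0.449), 0.71 for Mcm3 (SE 0.29, adjusted p = 0.375) and 0.58 for Mcm5 (SE 0.41, adjusted p = 0.729). Against MD, Mcm5 in MD+CA had 0.88 (SE 0.41, adjusted p = 0.213), which was 0.36 without the 3 libraries of short fragments. Mcm4, Mcm6 and Mcm7 overlapped between groups throughout, with log2 fold changes from −0.13 to 0.37.

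The loading factor Cdt1 held between 1 and 24 reads per library, and the helicase activator Cdc45 between 2 and 15, so that both lay near the filter. In MD against CD the log2 fold change of Cdt1 was 0.85 (SE 0.55, adjusted p = 0.383). Pcna was even across CD, at 19.5, 20.9, 19.9 and 22.9 CPM, and uneven in MD, at 21.0, 10.4, 25.5 and 20.9, and in MD+CA, at 23.6, 19.2, 13.5 and 27.2. MD replicate 2 and MD+CA replicate 3 were the low libraries.

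Of the genes that supply deoxynucleotides, Rrm1, the large subunit of ribonucleotide reductase, stood at 16.4, 21.1, 16.4 and 16.7 CPM in CD, at 11.1, 6.62, 17.6 and 15.2 in MD and at 19.5, 22.6, 21.3 and 16.6 in MD+CA. MD replicates 1 and 2 were again the lowest of the 12 libraries, and the groups overlapped through MD replicate 3. The log2 fold change in MD+CA against MD was 0.66 (SE 0.25, adjusted p = 0.136), and 0.30 (adjusted p = 0.524) without the 3 libraries of short fragments. A transcript of the nonsense-mediated decay class held 51.0% of Rrm1 reads and is 747 bases long, so the TPM of Rrm1 includes much RNA that is not annotated to give the full protein.

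Rrm2, the small subunit whose level rises in S phase, ranged from 1.32 to 6.05 CPM with log2 fold changes of −0.43, 0.04 and −0.39 in the order above. Tyms, which makes thymidylate, ranged from 4.91 to 8.12 CPM, and its 95% intervals lay within 2-fold in all 3 comparisons. The medians per length were 17.4 TPM for Rrm1, with the short transcript included, and 2.00 TPM for Rrm2.

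Several genes of late S phase, G2 and mitosis held few reads. Ccna2, the A-type cyclin of S phase and G2, stood at 0.675, 1.11, 1.07 and 0.834 CPM in CD, at 0.841, 1.94, 1.65 and 1.75 in MD and at 1.19, 1.72, 1.52 and 1.56 in MD+CA. MD+CA lay above CD without overlap, and MD overlapped CD through MD replicate 1. The log2 fold change was 0.70 (SE 0.37, adjusted p = 0.571) in MD+CA against CD and 0.74 (SE 0.37, adjusted p = 0.274) in MD against CD. A transcript with no defined coding sequence held 30.1% of the Ccna2 reads, 0 to 60.0% per library in CD and 24.1 to 58.8% in MD+CA. The lack of overlap thus holds for the summed count and not for the coding transcript alone. Cdk1, the kinase that starts mitosis, stood at 0.459, 2.87, 0.127 and 0.951 CPM in MD+CA, where replicate 2 held 35 reads and replicate 3 held 1. Of the Cdk1 reads, 17.6% lay on a retained-intron transcript, and 39.7% in MD+CA replicate 2.

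Mki67 stood at 4.93, 5.77, 4.74 and 4.52 CPM in CD, at 5.12, 7.13, 6.16 and 7.32 in MD and at 9.37, 9.58, 4.30 and 6.31 in MD+CA. Top2a, the topoisomerase that untangles chromosomes before they separate, stood at 2.84, 4.26, 4.83 and 2.78 CPM in CD, at 1.89, 4.38, 4.58 and 5.25 in MD and at 5.42, 9.09, 6.58 and 4.24 in MD+CA. MD+CA replicates 1 and 2 held the highest Mki67, MD+CA replicates 2 and 3 the highest Top2a, and the groups overlapped. Between MD+CA and CD the log2 fold change was 0.58 (SE 0.25, adjusted p = 0.426) for Mki67 and 0.79 (SE 0.33, adjusted p = 0.39) for Top2a.

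Without MD+CA replicate 2 these values were 0.43 and 0.56. Birc5, survivin, a member of the chromosomal passenger complex, ranged from 0.886 to 3.95 CPM, and its log2 fold changes were 0.63, −0.42 and 0.21 in the order above. All 5 members with an unadjusted p under 0.05 in MD+CA against CD, namely Cdkn1a, Mcm2, Mcm3, Mki67 and Top2a, were higher in MD+CA, against 6.16% of all genes.

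Sums of markers of other liver cells also differed between the groups. In this bulk tissue more cells of a type and more RNA per cell cannot be told apart. The summed CPM of 7 Kupffer cell markers ranged from 203 to 255 in CD and from 157 to 269 in MD, and was 664, 693, 565 and 334 in MD+CA, where 4 of the 7 rose against MD and 3 against CD. Over all 13631 genes 145 rose in MD+CA against MD and 30 in MD+CA against CD. The sum of 6 T and NK cell markers was 4.13, 9.33, 3.80 and 5.36 CPM in MD+CA against 1.59 to 3.97 in the other 8 libraries, and the 1 marker of these that could be tested did not pass. Of the 9.33 CPM in MD+CA replicate 2, Cd3g alone gave 5.32. That library held the highest Kupffer cell sum, the highest T and NK cell sum and the highest monocyte and macrophage sum. It also held the highest Cdk1, Top2a and Mki67. Of its Kupffer cell sum of 693 CPM, Marco alone gave 281. Marco and Adgre1 were highest in that library, and the other Kupffer cell markers in MD+CA replicate 1 or 3. MD+CA replicate 3, with a Kupffer cell sum of 565 CPM, held the lowest Cdk1 (0.127 CPM) and the lowest Mki67 (4.30 CPM) of the 12 libraries. The monocyte and macrophage sum of 5 markers was 30.0 to 49.9 CPM in MD+CA, 14.6 to 28.2 in MD and 12.1 to 18.7 in CD. The sum of 3 neutrophil markers was 2.39, 4.01, 13.0 and 0.605 CPM in MD+CA against 0 to 2.06 in the other 8 libraries. Of these, S100a9 was at 12.4 CPM in MD+CA replicate 3, the library with the highest Cdkn1a, and Ly6g was at 0 in all 12. The same library held the highest sum of 4 bile duct markers, 69.6 CPM, with Sox9 at 63.5. It also held the lowest sum of 5 stellate cell markers, 33.7 CPM, and the fewest assigned reads, 9089586. The bile duct, stellate cell, erythroid precursor and B and plasma cell sums overlapped between all groups. The sum of 4 sinusoidal endothelial markers was 51.4 to 80.9 CPM in MD against 37.5 to 46.8 in CD and 37.9 to 58.3 in MD+CA, and none of the 4 passed in any comparison with edgeR. The part of these cells in the values of Cdkn1a, Mki67, Top2a, Ccnd3, Cdk6 and the Mcm genes was not tested.

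Immediate early and clock genes also differed between the groups. The summed CPM of 8 immediate early genes was 947, 1370, 455 and 136 in MD, against 34.7 to 191 in CD and 42.0 to 82.4 in MD+CA. MD replicates 1 and 2, with the highest of these sums, were also the libraries with the lowest Ccnd1, Rrm1, Mcm5 and E2f1. Of the 8 immediate early genes, Ier3 ran the other way from the sum, with a mean of 0.779 CPM in MD and 1.05 in CD. The sum of 12 clock genes was 219 to 421 CPM in MD+CA and 547 to 1180 in the other 8 libraries. Of the 12, 7 fell and 1 rose in MD+CA against MD, where 224 of all 13631 genes fell and 145 rose. Bmal1 and Npas2 ran the other way from the sum, Bmal1 at 8.76 to 17.1 CPM in MD+CA and 0.716 to 2.70 elsewhere and Npas2 at 1.64 to 7.99 and 0 to 1.32. Clock and Nfil3 also had their highest means in MD+CA, at 34.4 and 24.9 CPM, and overlapped MD. Their means were 19.3 and 11.3 CPM in CD and 22.5 and 10.9 in MD. The labels give no time of day at which livers were taken. The part of either in the members' values was not tested.

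The 10 members below the filter were the E-type cyclins Ccne1 and Ccne2, the mitotic regulator Foxm1, the licensing factor Cdc6, the B-type cyclins Ccnb1 and Ccnb2, the mitotic kinases Aurka, Aurkb and Plk1, and the checkpoint kinase Bub1. A count of 3 reads, taken as the limit of detection, equals 0.203 to 0.380 CPM depending on the library. Cdc6 never exceeded 3 reads. Ccne2 was the best detected of the 10, with 4 to 16 reads, followed by Aurka with 0 to 12 and Foxm1 with 2 to 10.

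Plk1 held 5, 0, 1 and 1 reads in CD, 3, 7, 6 and 2 in MD and 6, 8, 1 and 5 in MD+CA. Aurkb held 1, 3, 0 and 1 in CD, 1, 3, 0 and 6 in MD and 6, 8, 9 and 0 in MD+CA. No library at 0 can be read as lacking the transcript, since a count of 0 allows up to 3 reads by counting error alone.

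Summed over the 10 genes, the reads were 37, 24, 36 and 34 in CD, 38, 36, 61 and 62 in MD and 42, 70, 41 and 42 in MD+CA, or 2.36 to 3.22, 2.66 to 4.93 and 3.63 to 5.73 CPM. MD+CA thus lay above CD in this sum without overlap, and MD overlapped both. Fitted without the filter, 0 of the 10 passed 0.05 with edgeR. Aurkb in MD+CA against CD, where the log2 fold change was 2.33 (SE 1.03, adjusted p = 0.508), had the smallest unadjusted p among them, 0.0282.

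**Figure D4:**
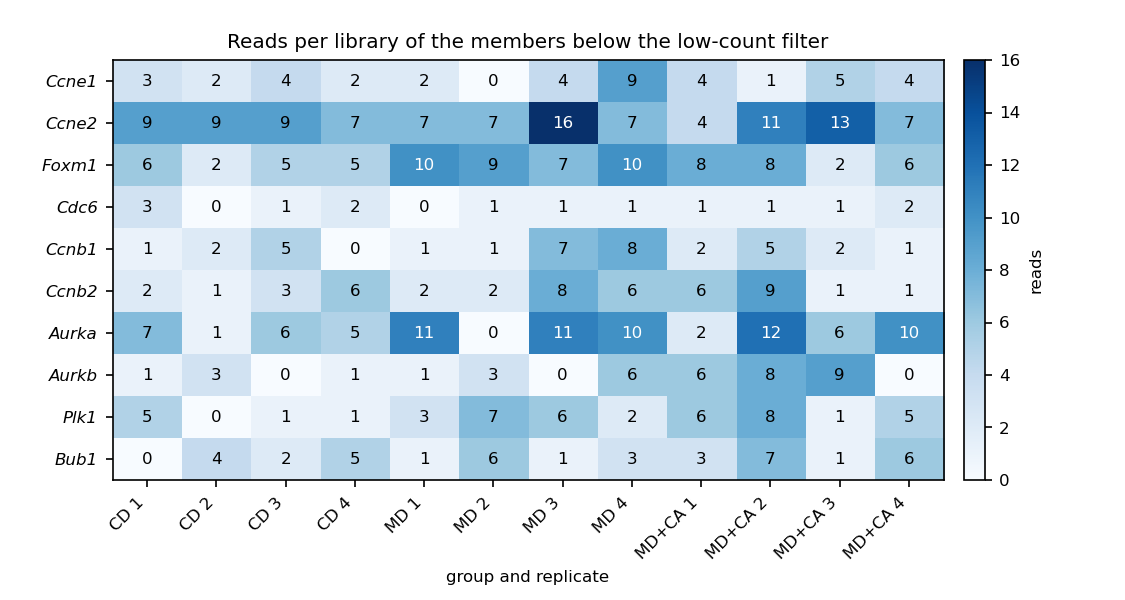
Reads of the 10 members below the low-count filter in each library, as a shaded grid with the read number in each cell. No cell exceeds 16 reads, Cdc6 never exceeds 3, and MD+CA replicate 2 holds the largest sum, 70 reads.

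Further genes of the same pathways came from 5 lists. In 4 of them 0 of 118 tested genes passed with edgeR in any comparison: 43 genes of replication and nucleotide supply, 36 of mitosis and the spindle, 16 RB, E2F and DREAM factors, and 23 other CDK inhibitors, cyclins and kinases. An unadjusted p under 0.05 was reached by 7, 17 and 13 of the 118 in MD against CD, MD+CA against MD and MD+CA against CD. Of all genes, 19.9, 23.2 and 10.5% reached it in the same order. With DESeq2, 149 genes of the 4 lists had a p. DESeq2 called 1 (Kif20b), 7 (Ccnl1, Ccnl2, Incenp, Mnat1, Rbl1, Tk1 and Wee1) and 2 (Rbl1 and Wee1) in that order. Limma voom called 0, 2 (Rbl1 and Tk1) and 1 (Rbl1). Without the low-count filter edgeR called 0, 5 (Ccnl1, Ccnl2, Incenp, Tk1 and Wee1) and 1 (Wee1). Over all genes DESeq2 called 643, 1206 and 325, limma voom 374, 408 and 191, and edgeR without the filter 481, 1017 and 390. The median log2 fold changes of the mitosis list were 0.26, 0.22 and 0.42 in MD against CD, MD+CA against MD and MD+CA against CD, those of the replication list 0.10, 0.00 and 0.07, those of the RB and E2F list −0.02, −0.12 and 0.02, and those of the CDK and cyclin list −0.02, −0.05 and 0.05.

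Of 23 tested p53 targets and growth arrest genes 3 fell in MD+CA against MD with edgeR and 0 rose, with a list median of −0.16. In that comparison 4 higher and 4 lower genes reached an unadjusted p under 0.05, against 23.2% of all genes. In the other comparisons 0 passed with edgeR. There 4 reached an unadjusted p under 0.05 in MD against CD and 4 in MD+CA against CD, against 19.9 and 10.5% of all genes. DESeq2 called Btg2 in MD against CD and Ddit4 in MD+CA against CD, and limma voom called Ddit4 in MD against CD. In MD+CA against MD, DESeq2 called Btg2, Gadd45a, Gadd45b and Plk3, and limma voom called Pmaip1 alone. Without the low-count filter edgeR called Btg2, Gadd45a and Plk3 in MD+CA against MD. It called Btg2 and Gadd45a in MD against CD. Over all genes 1.64% fell in MD+CA against MD. Btg2, an antiproliferative cofactor, stood at 116, 131, 44.6 and 15.9 CPM in MD and at 19.1, 4.26, 11.4 and 6.14 in MD+CA, and fell 7.54-fold (log2 fold change −2.92, SE 0.64, adjusted p = 0.0304). Gadd45a, a growth arrest and DNA damage gene, fell 3.45-fold (−1.79, SE 0.40, adjusted p = 0.0328), and its relative Gadd45b 2.99-fold (−1.58, SE 0.40, adjusted p = 0.0492). MD replicate 4 overlapped MD+CA for Btg2 and Gadd45a.

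In MD the libraries kept the same order for Btg2 as for the immediate early sum, with replicate 2 highest and replicate 4 lowest. None of the 3 passed without the 3 libraries of short fragments, where the log2 fold change was −2.08 for Btg2 (adjusted p = 0.166), −1.92 for Gadd45a (0.089) and −1.42 for Gadd45b (0.226) with fewer libraries in each group. In MD against CD the log2 fold change of Btg2 was 3.17 (SE 0.65, adjusted p = 0.0785), with CD at 6.75, 4.86, 4.20 and 18.1 CPM. It was 3.16 with DESeq2 (adjusted p = 0.00266), 3.11 with no low-count filter (4.56e-06), 2.07 with a fragment length covariate (0.211) and 1.82 without the 3 libraries of short fragments (0.388).

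Among the genes of this list with the smallest p in MD+CA against CD, Eda2r, a death-domain receptor, stood at 1.01 to 1.64 CPM in MD+CA against 0.0675 to 0.626 in CD, and its log2 fold change was 2.03 (SE 0.56, adjusted p = 0.126). Ddit4, an inhibitor of mTOR signalling, stood at 4.76 to 8.86 CPM in MD+CA against 2.50 to 4.66 in CD, with 1.04 (SE 0.28, adjusted p = 0.109) in MD+CA against CD. Gadd45b, also among the 3 smallest, lay lower in MD+CA than in CD, at a mean of 0.756 against 1.71 CPM (log2 fold change −1.20, SE 0.40, adjusted p = 0.233). None of the 3 overlapped between MD+CA and CD, as held for 6.4% of all genes. The 3 were picked by their p in this same comparison, which favours genes without overlap. In MD against CD the log2 fold change was 1.39 for Eda2r (adjusted p = 0.205), 0.89 for Ddit4 (0.131) and 0.39 for Gadd45b (0.574). Ddit4 did not overlap between MD and CD either. In MD+CA against MD, Eda2r had 0.64 (adjusted p = 0.467) and Ddit4 0.16 (0.76).

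Some regulators missed the threshold in edgeR with the low-count filter. Among these, Rbl1, the pocket protein p107, stood at 4.41, 6.22, 2.78 and 4.58 CPM in MD+CA against 1.42 to 2.15 in CD. Its log2 fold change in MD+CA against CD was 1.32 (SE 0.32, adjusted p = 0.0788). E2f2, an activating E2F, had 1.37 (SE 0.40, adjusted p = 0.151) in the same comparison. Wee1, the kinase that keeps CDK1 inactive and whose transcript is under clock control in liver, stood at 0.184, 0.573, 0.506 and 2.42 CPM in MD+CA against 1.82 to 5.63 in MD and 2.03 to 6.08 in CD. Its log2 fold change in MD+CA against MD was −1.95 (SE 0.59, adjusted p = 0.0775).

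In the mitosis list, Incenp, the scaffold of the chromosomal passenger complex, stood at 8.47 to 17.5 CPM in MD+CA against 4.62 to 7.32 in MD without overlap, and its log2 fold change was 0.95 (SE 0.25, adjusted p = 0.0546). Mad1l1, of the spindle checkpoint, had 0.61 (SE 0.20, adjusted p = 0.0967) in MD+CA against MD, and the kinesin Kif20b had 1.19 (SE 0.33, adjusted p = 0.115) in MD against CD. In the replication list, Tk1, the salvage kinase of S phase, stood at 29.9, 36.2, 22.8 and 18.9 CPM in MD and at 20.4, 6.96, 3.04 and 7.95 in MD+CA. Its log2 fold change was −1.48 (SE 0.40, adjusted p = 0.0589), with MD+CA replicate 1 alone inside the range of MD. Ccnl2, a cyclin of splicing kinases, had −1.19 (SE 0.32, adjusted p = 0.0595) in MD+CA against MD, with MD replicate 2 at 774 CPM. The other 16 genes among the 3 smallest p of a list in a comparison were Pold1, Rfc2, Dbf4, Gins2, Gins3, Fen1, Nuf2, Smc2, Lin37, E2f6, Lin54, Rbl2, Ccnl1, Myc, Mnat1 and Cdk8. Their log2 fold changes lay between −1.43 and 1.78, and the smallest adjusted p was 0.0675, for Ccnl1 in MD+CA against MD.

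**Figure D5:**
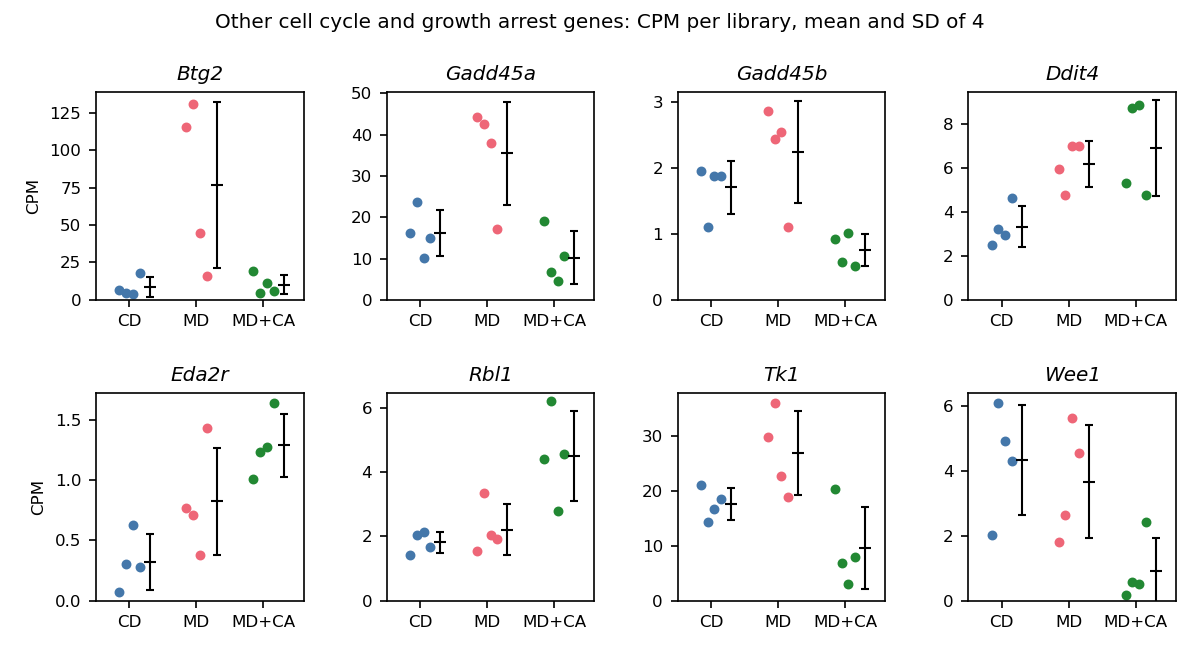
CPM of 8 genes from the pathway lists in the 12 libraries, 1 point per library in replicate order, with the mean and SD of 4 beside each group. Btg2, Gadd45a and Gadd45b fell in MD+CA against MD, while the other 5 genes missed the threshold in each comparison with edgeR on the 13631 tested genes.

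The transcripts that carried the reads differed among members and libraries. One coding transcript held 99.9% of Ccnd1 reads, 1 held 98.4% of Cdk6 reads and 1 held all reads of Mki67. Retained-intron transcripts held 4.48 to 6.07% of the reads of the tested members in CD, 10.5, 15.2, 6.73 and 8.02% in MD and 5.09 to 6.67% in MD+CA. In MD replicate 2 they held 74.4% of Cdk4 reads and 65.8% of Tyms reads. For these genes the summed count is not a measure of coding transcript alone: the coding form of Cdk4 held 18.7% in that library and 31.4 to 77.3% in the other 11. MD replicate 2, which was high in retained introns, was also the library with the largest mitochondrial share.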

How the data were processed

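Per the labels' protocols, libraries came from poly(A) RNA of snap-frozen liver (500 ng of input). Among tools and builds, fastp, Salmon 1.10.3, DESeq2 and GRCm39 are listed in the submitters' processing notes. The estimated counts (expected reads per transcript, not normalized), the TPM values (scaled for length and depth within each library) and the effective lengths were deposited by the authors, per the file headers. Each table lists 147556 transcripts.

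Estimated counts were summed per gene and rounded. Genes were filtered with filterByExpr (minimum count 10), libraries scaled with TMM, and 3 contrasts fitted in 1 edgeR 4.0.16 quasi-likelihood model of 3 group means over all 12 libraries (9 residual degrees of freedom, biological coefficient of variation 0.308). The adjusted p is a Benjamini-Hochberg value over 13631 genes, with a threshold of 0.05. DESeq2 1.42.0 and limma 3.58.1 (R 4.3.3) served as alternatives, with other scalings, filters, offsets and left-out libraries. The fragment length alternatives were chosen after seeing the data. No library repeated another within sampling noise. The steps were tested on simulated data.

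The text names all 37 members and, from each list, every gene that passed and the 3 with the smallest p in each comparison. Members and lists were chosen with earlier results of these data known. Floors cover counting error only. Pseudogenes named for a member, 6 in all, held at most 2 reads in a library.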

Additional observations from a re-analysis of the deposited data

Results flagged for a closer look

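In 81 groups of 4 libraries, 27 tested members in 3 groups, the highest or lowest library was compared with the other 3, and 3 stood apart by Dixon's test; chance alone gives about 1 in 20 groups. Cdk2 was at 4.56 CPM in MD+CA replicate 3, where the other 3 libraries were at 6.71 to 6.92. Rrm1 was at 21.1 CPM in CD replicate 2, where the others were at 16.3 to 16.7. Birc5 was at 1.54 CPM in MD replicate 1, where the others were at 3.53 to 3.87.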

How the results depend on the processing

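The number of members past the threshold in MD against CD was 0 under every alternative run. In MD+CA against MD it was 1 (Cdk6) with DESeq2 and 0 to 1 on leaving out each library in turn, the 1 being Cdk6 without MD replicate 3. In MD+CA against CD it was 1, Cdkn1a, with DESeq2, a fragment length covariate, limma voom, no low-count filter, protein-coding genes only and the replicate block (log2 fold change 2.69, adjusted p = 0.0426), and 0 to 1 on leaving out each library, the 1 being Cdkn1a without MD replicate 2 or MD+CA replicate 4. Over all genes the count in MD against CD was 12, and became 643 with DESeq2, 374 with limma voom, 481 with no filter, 35 with only the 2 groups compared, 6 with the fragment covariate, 4 without the 3 libraries of short fragments, 2 with the transcript length offset and 0 to 26 on leaving out each library. In MD+CA against MD it was 369 (145 higher and 224 lower), and became 1206, 408, 1017, 99, 142, 35 and 197 in the same order, 664 with the replicate block, and 109 to 963 on leaving out each library. In MD+CA against CD it was 72, and became 325 with DESeq2, 191 with limma voom, 390 with no filter, 46 with the 2 groups, 164 with the fragment covariate, 34 with the offset, 121 with protein-coding genes only, 154 with the replicate block and 17 to 169 on leaving out each library. The cause of these changes was not tested. Same-numbered libraries correlated between −0.0792 and 0.35 after removal of group means, and not every library correlated best with its own number, so the numbers were not taken as pairs. No called value changed sign. Of the values of single members under alternatives, 1755 kept direction and side of the threshold, 98 that were not called changed sign and 10 passed the threshold newly. Among list genes 1895 values kept direction and side of the threshold, 43 passed it newly and 24 that were not called changed sign. A further 35 values lost the threshold, among them Btg2 with limma voom (adjusted p = 0.0934), Gadd45a (0.051) and Gadd45b (0.136). Upper-quartile scaling moved the median of all genes in MD against CD to 0.11 from 0.043. Depth limits the 10 members below the filter and Cdt1, Cdc45 and Cdk1 most.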
